A study of Mus musculus with 2 samples.

Results

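The core circadian clock genes were described here as the 10 genes of the positive and negative limbs of the clock: Arntl, Clock, Npas2, Per1, Per2, Per3, Cry1, Cry2, Nr1d1 and Nr1d2. They were chosen by name, and all 10 were found among 18193 named genes, with 23 of 45037 probe sets (a probe set is a group of short probes for the same transcript). Livers of C57BL/6J mice aged 2 months were compared on day 3 after a tail vein injection of 1000000000 plaque-forming units per mouse of either an empty adenovirus vector (Ad-control) or an adenovirus vector that overexpresses PDK4 (Ad-PDK4), an inhibitory kinase of the pyruvate dehydrogenase complex. Both groups thus carried adenovirus, and no uninfected liver was analysed here. Livers of 4 Ad-control mice and of 3 Ad-PDK4 mice were combined within each group, and 1 array was run on each pool, so that n = 1 per group, no error between animals exists and no p-value was computed. The mice lived under a cycle with 12 h of light, and no hour of sampling is stated in the labels.

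In mammalian cells the proteins CLOCK and BMAL1 (the product of Arntl), or NPAS2 in place of CLOCK, bind E-box sequences and activate the Per, Cry and Nr1d genes. PER and CRY proteins then form complexes that block this activation, and the REV-ERB receptors encoded by Nr1d1 and Nr1d2 repress Arntl, Npas2 and Clock through sites known as ROREs. In mouse liver this loop makes the transcripts rise and fall over the day in a fixed order: Arntl and Npas2 peak around the end of the night, Nr1d1 during the day, the Per genes around dusk and Cry1 later in the night.

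Short upstream sequences from RefSeq (mouse build GRCm38.p6) are shown for 4 members whose promoters carry such elements. A window of 250 bases before to 50 bases after the transcription start was given for 9 of the 10 members, with no entry for Per2. The E-box was searched as CACGTG, its weaker form E' as CACGTT, the D-box as TTATGTAA or TTACGTAA and the core of the RORE as AGGTCA or GGGTCA, each on both strands. The 250 bases before the start follow, 5′ to 3′, with E-box, E' and D-box letters in capitals. Cry1 and Per1 are shown as the members with an E-box, Nr1d1 for an E' box close to its start, and Per3 for its D-boxes.
Cry1, chr10:85185055-85185304, minus strand: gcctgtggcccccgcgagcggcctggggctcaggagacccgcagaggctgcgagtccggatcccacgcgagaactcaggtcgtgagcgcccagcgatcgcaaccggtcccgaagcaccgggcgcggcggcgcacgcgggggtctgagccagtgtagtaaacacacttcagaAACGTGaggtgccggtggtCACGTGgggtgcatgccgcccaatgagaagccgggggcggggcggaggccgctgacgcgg
Per1 (first listed start), chr11:69098699-69098948, plus strand: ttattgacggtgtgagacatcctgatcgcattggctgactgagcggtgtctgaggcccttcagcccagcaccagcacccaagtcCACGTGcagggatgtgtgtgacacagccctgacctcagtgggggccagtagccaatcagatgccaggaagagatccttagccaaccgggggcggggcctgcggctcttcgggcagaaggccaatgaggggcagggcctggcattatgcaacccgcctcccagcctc
Nr1d1, chr11:98775378-98775627, minus strand: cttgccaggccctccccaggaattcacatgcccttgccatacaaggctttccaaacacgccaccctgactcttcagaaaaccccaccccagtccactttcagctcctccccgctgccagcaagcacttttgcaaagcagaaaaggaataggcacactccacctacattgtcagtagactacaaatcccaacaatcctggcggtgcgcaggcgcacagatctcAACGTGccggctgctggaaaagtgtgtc
Per3, chr4:151044666-151044915, minus strand: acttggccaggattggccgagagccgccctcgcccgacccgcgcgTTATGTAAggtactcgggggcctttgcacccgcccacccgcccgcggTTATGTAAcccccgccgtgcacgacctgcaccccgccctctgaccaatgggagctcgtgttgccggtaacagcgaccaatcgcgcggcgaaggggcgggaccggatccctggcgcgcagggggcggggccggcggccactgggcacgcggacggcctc
The E-box began 60 bases before the start of Cry1 and 166 bases before the first listed start of Per1. The window of the second listed start of Per1 held none of the searched elements. The E' box lay 79 bases before the start of Cry1, 166 before that of Cry2 and 28 before that of Nr1d1. Per3 held 2 D-boxes, 205 and 158 bases before its start. E-boxes were thus found in 2 of 9 members, E' boxes in 3, RORE cores in 4 (Arntl, Clock, Per1 and Nr1d2) and D-boxes in 1. Counted per gene in the same way, 8.09% of all 27025 genes in the table held an E-box, 5.44% an E' box, 30.1% a RORE core and 1.23% a D-box; per window of the same length (32851 in all) the shares were 7.15%, 4.68%, 27.5% and 1.06%. Such a match describes letters and does not show a bound site.

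The arrays gave 1 linear signal intensity per probe set. A signal was taken as measured from the median of the non-control probe sets upward, which set a floor of 93.4 for Ad-control and 99.9 for Ad-PDK4. Differences are log2 signal of Ad-PDK4 minus log2 signal of Ad-control, centred on the median measured probe set, and each gene is given by its brightest probe set unless others are named. Of the 10 members, 8 were measured on both arrays, Arntl on the Ad-control array only and Npas2 on neither. With n = 1 per group the only error scale is how far the probe sets of 1 gene disagreed, with a pooled SD of 0.35 (log2) over 4326 genes. For the 4 members with several measured probe sets (Clock, Per2, Per3 and Nr1d2) it was 0.47. The number of arrays limits the precision.

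**Figure D1:**
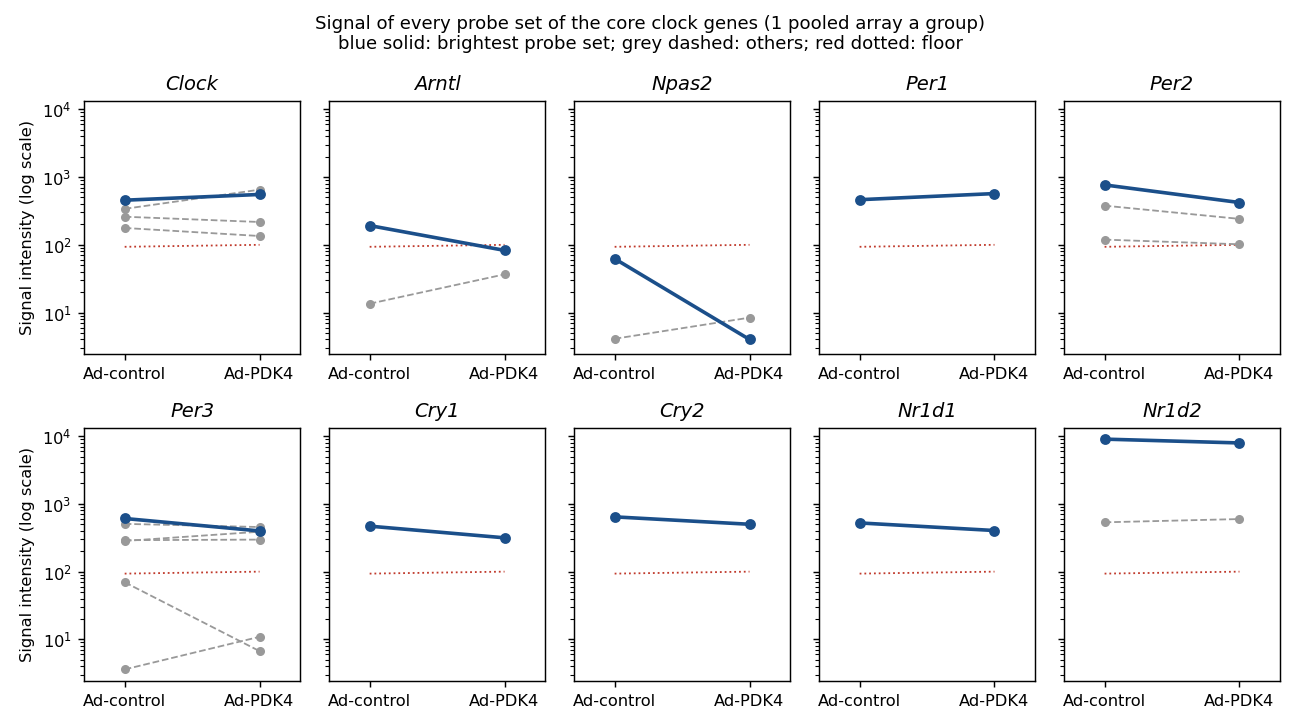
Signal intensity (log scale) of each probe set of the 10 core clock genes on the Ad-control and the Ad-PDK4 array, 1 pool of livers each. The solid blue line joins the brightest probe set of a gene, dashed grey lines the others, and the dotted red line is the floor (93.4 and 99.9). All probe sets of Npas2 lie under the floor, all 3 of Per2 slope down, and those of Clock and Per3 slope both ways.

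Per2 was the clock gene whose probe sets were all lower in the pool labelled Ad-PDK4 among the members with several measured ones; in the others, Clock, Per3 and Nr1d2, probe sets lay on both sides of 0. Of the 9 members measured on at least 1 array, 3 were at least 1.5-fold lower (Arntl, Per2 and Per3), 0 were 1.5-fold higher and 6 lay within 1.5-fold. Among all 12121 genes measured on at least 1 array, 5.58% were as much lower and 11.0% as much higher. With bounds counted, no member (0) reached 2-fold lower, where 0.891% of all genes did. Arntl has only a bound, at least 1.9-fold lower, so whether it was 2-fold lower cannot be told. The 8 members measured on both arrays had a median log2 difference of -0.35 and lay between -0.85 and 0.31, with 6 of 8 below 0. Over all 17 measured probe sets of the members, 11 lay below 0, 3 were at least 1.5-fold lower and 1 was higher, against 6.21% and 8.87% of all 17490 measured probe sets of named genes. The median of all 10389 genes measured on both arrays was 0.015, and 48.4% of them lay below 0.

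These directions are relative to the median transcript of each pool. Centred on the 24 poly-A spike-in probe sets above the floor (their amounts are not known here), the median of all genes moved to 0.56 and that of the clock members to 0.19. The count of 3 lower and 0 higher members then became 0 lower and 2 higher, and the shares of all genes became 0.479% lower and 47.9% higher. Per2, Per3, Cry1 and Arntl stayed below 0 with that reference, while Cry2, Nr1d1 and Nr1d2 moved above it. Centred on the hybridization controls, the clock median was -0.097 against 0.27 for all genes.

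**Figure D2:**
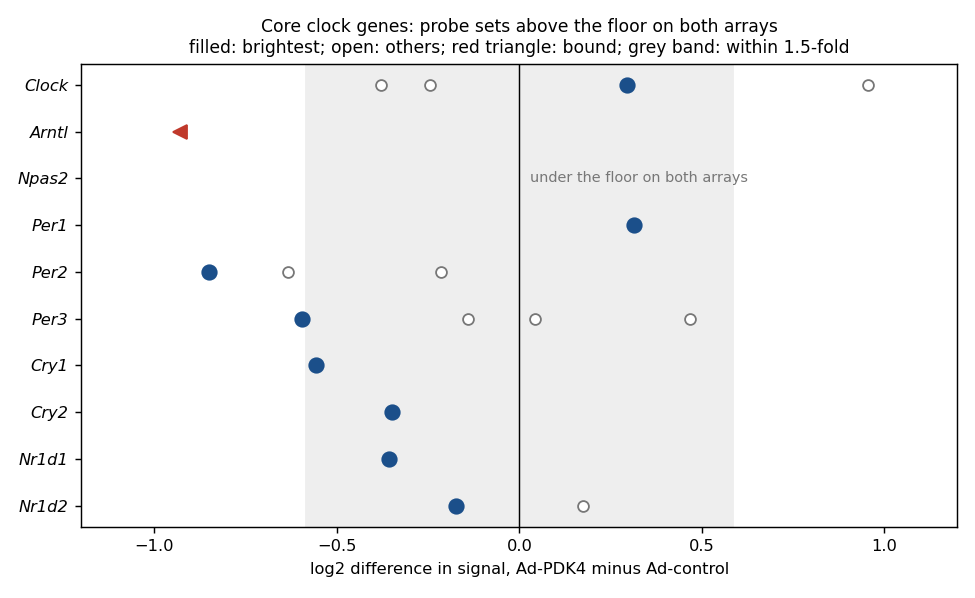
Log2 difference in signal, Ad-PDK4 minus Ad-control, for the 17 probe sets of the core clock genes measured on both arrays. Filled points are the brightest probe set of each gene, open points the others, the red triangle is the bound for Arntl, and the grey band marks differences within 1.5-fold. Among genes measured on both arrays Per2 lies lowest at -0.85, while Clock spans -0.38 to 0.95 and Per3 -0.60 to 0.47.

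In the positive limb, Clock encodes a subunit of the activating heterodimer and was the better measured member. Its brightest probe set had a signal of 455 in the Ad-control pool and 553 in the Ad-PDK4 pool, a log2 difference of 0.30. A further probe set, with signals of 340 and 651, gave 0.95. The remaining probe sets ran the other way, at -0.24 (260 and 217) and -0.38 (177 and 135). The direction of Clock is therefore not settled, and the median over its 4 probe sets was 0.026.

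Arntl, the gene of BMAL1, was near or under the floor. Its brighter probe set had a signal of 192 in the Ad-control pool and 82.7, under the floor, in the Ad-PDK4 pool, which makes it at least 1.90-fold lower. That bound follows the floor, and a floor at the 70th percentile left the gene measured on neither array. Its other probe set was under the floor in both pools (13.5 and 36.6). Npas2, which can replace CLOCK as the partner of BMAL1, had signals of 62.3 and 4.0 on one probe set and 4.1 and 8.4 on the other, all under the floor, so that no difference is given.

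The Per genes encode the period proteins, repressors that accumulate with CRY. Per2 showed the lowest log2 difference of the 8 members measured on both arrays. Its brightest probe set had a signal of 766 in the Ad-control pool and 421 in the Ad-PDK4 pool, 1.80-fold lower (log2 difference -0.85). Its other probe sets were lower too, at -0.63 (378 and 241) and -0.21 (119 and 102). The dimmest of them was close to the floor of 99.9 in the Ad-PDK4 pool, and its difference was less than the probe set SD of 0.35. Of the 2077 genes of like mean signal (478 to 932, the middle of 5 equal brightness classes), 4.09% lay as far from 0 in either direction. Per2 was below 0 in all 12 processing settings tried, from -0.88 to -0.31.

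Per1, a period gene also induced directly by hormonal and light cues, was on the other side. Its only probe set gave 463 in the Ad-control pool and 570 in the Ad-PDK4 pool, a log2 difference of 0.31, and 37.6% of genes of its brightness class lay as far from 0. Relative to the brightest probe set of Per2 on the same arrays, Per1 was 2.24-fold higher in the Ad-PDK4 pool than in the Ad-control pool. No scaling by a constant can change this contrast of 1.16 (log2), but it rests on the choice of probe set. The other probe sets of Per2 (-0.63 and -0.21) make it smaller.

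For Per3 the probe sets disagreed. The brightest lay just past 1.5-fold, with signals of 608 and 399 (log2 difference -0.60), and the next gave -0.14 (507 and 455). The other measured probe sets gave 0.043 (291 and 297) and 0.47 (284 and 388), and a further 2 were under the floor in both pools. The median over the 4 measured probe sets was -0.049, so that the count of lower members rests for Per3 on the choice of probe set.

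Both cryptochrome genes, whose proteins are the strongest repressors of CLOCK and BMAL1, were lower by less than 1.5-fold. Cry1 had a signal of 469 in the Ad-control pool and 316 in the Ad-PDK4 pool, a log2 difference of -0.56. Cry2 had signals of 643 and 500, a log2 difference of -0.35. Each was read by a single probe set, that of Cry1 being of the _a_at kind, which covers several transcript forms of a gene. The contrast between them was 0.21, less than the probe set SD of 0.35.

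The REV-ERB genes encode heme-binding receptors that repress Arntl. Nr1d1 had a signal of 523 in the Ad-control pool and 404 in the Ad-PDK4 pool on its only probe set, a log2 difference of -0.36. Nr1d2 was bright, with 9034 and 7933 on one probe set (-0.17), and its second probe set gave 0.17 (534 and 597), so its direction is not settled. Of genes in their brightness classes, 43.3% and 49.95% lay as far from 0 as Nr1d1 and Nr1d2.

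Members with opposite daily peaks are set side by side here. Arntl (a bound of -0.93), whose peak lies opposite that of the Per genes, and Per2 (-0.85) were both lower. On their brightest probe sets Nr1d1 (-0.36), Nr1d2 (-0.17), Per3 (-0.60), Cry2 (-0.35) and Cry1 (-0.56) lay below 0 and Per1 (0.31) and Clock (0.30) above, with the directions of Clock, Per3 and Nr1d2 not settled. Per1 and Cry1, the members with an E-box in the window shown above, had opposite signs, a contrast of 0.87. The part of the sampling hour in these differences was not tested. In pooled liver, fewer cells that express a gene and less of its RNA per cell cannot be told apart.

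**Figure D3:**
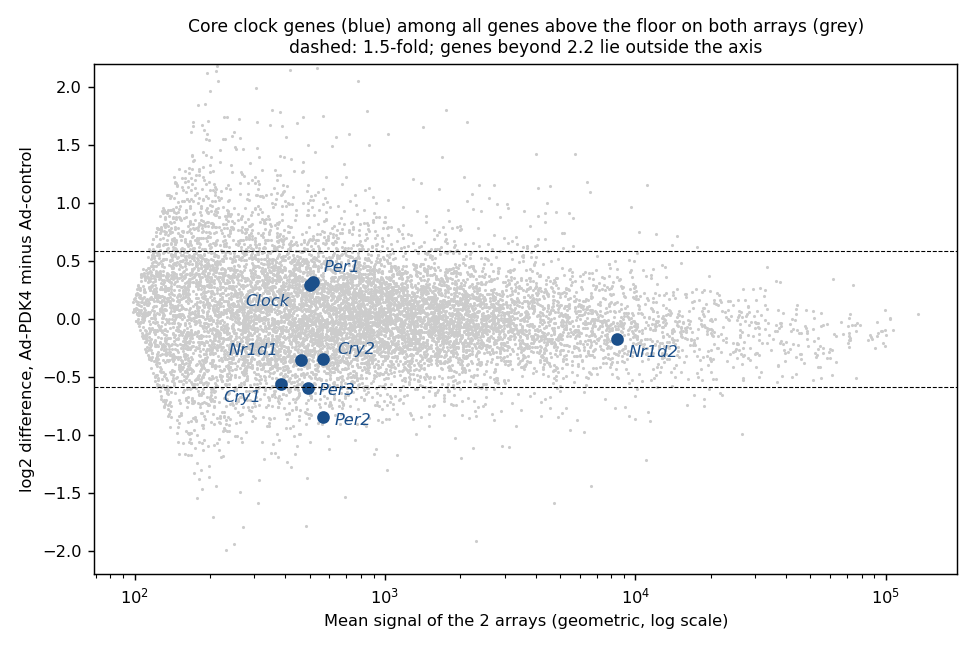
Log2 difference, Ad-PDK4 minus Ad-control, against the mean signal of both arrays (geometric mean, log scale) for genes measured on both arrays. Grey points are all 10389 genes, of which 53 lie beyond the axis limit of 2.2, blue points are the 8 core clock genes, and dashed lines mark 1.5-fold. Per2 and Per3 lie below the lower dashed line and Cry1 just above it. All 8 members lie within the spread of the grey points.

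Genes that modify the core loop lay on both sides of the array median. Of 24 listed regulators 21 were matched and 18 measured, all on both arrays. Of these, 1 was at least 1.5-fold lower, 3 were higher and 14 lay within, with a median of -0.011. Usp2, a deubiquitinase of clock proteins that is itself rhythmic, was lowest, with signals of 3650 and 2324 (log2 difference -0.64) and -0.66 on its other probe set. Bhlhe40, a repressor of E-box transcription also known as Dec1, followed at -0.41 (4141 and 3075). The highest were Tipin, a partner of Timeless at replication forks, at 0.83 (675 and 1192), and Hdac3, the deacetylase that acts with REV-ERB, at 0.76 (706 and 1183). The third higher gene, Btrc (0.61), a ubiquitin ligase subunit that targets PER, was named after its value was seen. Rora, the activator that competes with REV-ERB at ROREs, gave 0.00 on its brightest probe set but down to -1.85 on others, and was named after its values were seen.

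The PAR bZIP factors and their antagonist, direct outputs of the loop, lay within 1.5-fold. Dbp, driven by CLOCK and BMAL1, had signals of 14463 and 11363 (log2 difference -0.33) and -0.23 on its second probe set. Tef gave -0.14, although another of its probe sets (426 and 109) gave -1.95. Hlf gave 0.34 and Nfil3, the repressor that opposes these factors, -0.27. The median over the 4 genes was -0.20 (0.053 centred on the hybridization controls).

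Liver transcripts known to follow the clock had a median log2 difference of -0.25 over 11 of 12 listed genes. Of these, 2 were at least 1.5-fold lower, 0 higher and 9 within, and 8 lay below 0. Alas1, the first enzyme of heme synthesis, was lowest, with a signal of 37837 in the Ad-control pool and 18797.0 in the Ad-PDK4 pool (-0.99) and -1.75 on its other probe set. Lonrf3 gave -0.73, but 1.11 on its other probe set, so its direction is not settled. Wee1, a kinase of the cell cycle, was highest at 0.58, just short of 1.5-fold (-0.017 on its other probe set). Rgs16, a regulator of G protein signalling, followed at 0.40 (-0.64 on the lowest of its 3 probe sets). This median was 0.007 centred on the hybridization controls and 0.29 on the poly-A controls.

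Genes that answer systemic timing cues had list medians on both sides of 0. Of 6 measured genes that follow body temperature, 1 was at least 1.5-fold higher and 5 lay within, with a median of 0.19. Hsp90aa1, a heat-induced chaperone, was higher by 0.97 (6932 and 13399), Hspa1b gave 0.34 and Hsph1 0.12, and the cold-induced Cirbp gave -0.21. On their brightest probe sets all 10 glucocorticoid-response genes lay within 1.5-fold, with a median of 0.050. They lay between Pck1 (-0.52) and Klf9 (-0.48) on the low side and Fkbp5 (0.40) and Mt2 (0.54) on the high side. The 6 measured probe sets of Klf9 ran from -1.02 to -0.050. Of 11 measured immediate early genes, 2 were measured in the Ad-control pool only and 1 in the Ad-PDK4 pool only. Their bounds are under 1.5-fold, so whether they reached 1.5-fold cannot be told. Of the 8 measured on both arrays, 3 were at least 1.5-fold lower, 0 higher and the rest within, with a median of -0.15. Csrnp1 (-1.99) and Ier2 (-0.93) were lowest, Junb (0.55) and Ier3 (0.34) highest, and Egr1 (-0.91), named after its value was seen, was the third lower gene.

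**Figure D4:**
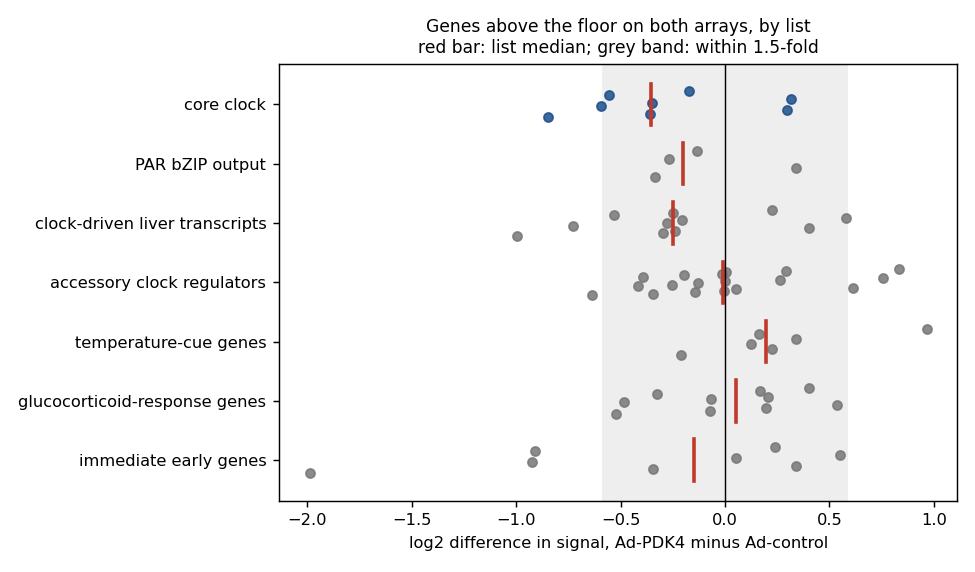
Log2 difference, Ad-PDK4 minus Ad-control, of the genes measured on both arrays in the core clock (blue) and in 6 related lists (grey). Red bars are list medians and the grey band marks differences within 1.5-fold. The core clock median is -0.35 and that of the temperature-cue genes 0.19; the order of the lists changes with the floor and the probe set rule.

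Pdk4 itself, the gene carried by the vector, was read by 1 probe set with a signal of 234 in the Ad-control pool and 177 in the Ad-PDK4 pool (log2 difference -0.39), which does not show its overexpression, so the pools are called by their labels. Pancreatic acinar and proliferation markers differed far more between the pools than the clock genes measured on both arrays. Hepatocyte markers lay within 1.5-fold in 5 of 5 measured cases, and Alb, the albumin gene that defines the tissue, gave 0.079. All 7 measured pancreatic acinar markers were at least 1.5-fold higher in the Ad-PDK4 pool (2.93 to 3.46), with a summed signal of 6533 against 59330.4. All 5 measured proliferation markers were higher (2.59 to 5.13), with a summed signal of 726 against 12395. Of 6 skeletal muscle markers 5 were lower (-1.44 to -0.22 over the list), with a summed signal of 3704 against 2028. None (0) of these markers was under the floor on either array. RNA integrity, read as the ratio of 3' to 5' signal, was 4.88 in the Ad-control and 5.46 in the Ad-PDK4 pool on the beta-actin probe sets, 0.785 and 0.806 on those of Gapdh, and 9.26 and 7.96 on those of pyruvate carboxylase. The part of these differences in the clock values was not tested.

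**Figure D5:**
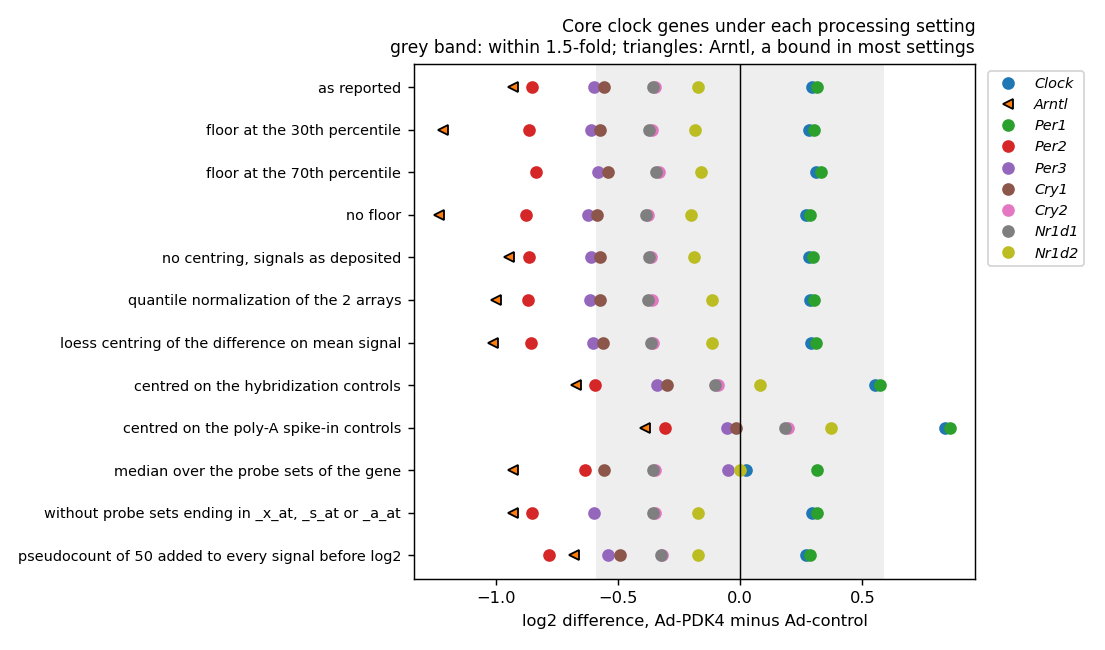
Log2 difference, Ad-PDK4 minus Ad-control, of 9 core clock genes (colours) as reported and under 11 other processing settings (rows). Triangles are Arntl, which is a bound in most settings, and the grey band marks differences within 1.5-fold. The order of the genes is kept under each change of scaling by a constant, and the whole set shifts to the right when centred on the control probe sets.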

How the data were processed

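Biotin-labelled cRNA of 1 liver pool per group was measured on Affymetrix arrays, per the labels. The deposited intensity values are linear, 1 per probe set. Their trimmed mean (without the outer 2% at each end) is 500.0 on both arrays; the summary method, software and build are not stated in the labels. Symbols came from the platform annotation, checked through Entrez identifiers against RefSeq. Signals were put on the log2 scale without a pseudocount, differences were centred on the median of 20151 probe sets measured in both pools (moved by -0.015), and a gene below 1 floor has a bound against that floor. No test was run. Members and lists were chosen with earlier results of these data known. Named were all members, the PAR bZIP group, and the 2 highest and 2 lowest genes of every other clock or cue list. Unmatched list genes are not analysed here. The calculations were tested on simulated data. Python 3.11.15, pandas 2.3.3 and statsmodels 0.14.6 (loess) were used. Alternatives changed the floor, the scaling, the probe set rule, the pseudocount and the fold.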

Additional observations from a re-analysis of the deposited data

How the results depend on the processing

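Relative to the values reported, the clock median moved by more than the probe set SD only when centred on the poly-A spike-in controls, to 0.19. The number of members at least 1.5-fold lower, 3 as reported, was 1 at a floor of the 70th percentile (where Arntl was on neither array and Per3 fell just short), 0 when centred on the poly-A controls and 0 at a fold of 2. The number at least 1.5-fold higher, 0 as reported, was 2 when centred on the poly-A controls. Under the other 30 combinations of these results and settings the values were within the probe set SD or within 1.5 times the count. Lonrf3 was the only called gene of the lists whose sign turned, to 0.19 as the median over its probe sets. Of single genes and other lists, 1639 values stayed within these limits; centred on the poly-A controls 146 moved up and 9 down, and under all other settings 39 moved up and 45 down. Per1 and Clock lay above 0, and Per2 and Per3 below it, in all 12 settings, and Npas2 had a value in only 2 of them. Most settings keep the brightest probe set of a gene, so a constant sign says little about its other probe sets. As the median over probe sets, Clock gave 0.026 and Per3 -0.049, and the directions of both stay not settled. No paired analysis was possible because each group is 1 pooled array. For the same reason no replicate could be left out.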

Other observations

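Markers of the other cell types a liver can hold, fixed as lists with earlier results known, gave the following values. Of 6 Kupffer cell and macrophage markers 2 were at least 1.5-fold lower in the Ad-PDK4 pool, Vsig4, a complement receptor of resident macrophages, at -1.19 and Clec4f, a lectin of Kupffer cells, at -1.13, while Cd68 (0.37) and Adgre1 (0.21) were not; the median over the 5 measured on both arrays was 0.10. The 3 T and NK cell markers measured on both arrays lay within 1.5-fold, with a median of 0.42. Cd3d, measured in the Ad-PDK4 pool only (27.3 and 107.8), has a bound of at least 1.17-fold higher. Whether it reached 1.5-fold cannot be told. All 3 measured B and plasma cell markers lay within 1.5-fold, with a median of 0.11. Of 4 endothelial markers Cdh5 was lower (-0.68) and Pecam1 higher (0.71), and of 4 stellate cell markers Des was higher (0.72), with list medians of 0.15 and -0.062. The only cholangiocyte marker measured on both arrays, Epcam, gave -0.52, within 1.5-fold. Krt19 was measured in the Ad-control pool only (122.9 and 16.9). It has only a bound, at least 1.22-fold lower, so whether it reached 1.5-fold cannot be told. These genes were named after their values were seen.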
